A study of Xenopus laevis with 3 samples.

Results

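The genes described are those of the cytosolic ribosomal proteins of the frog Xenopus laevis, the protein parts of the ribosome that translates messenger RNA outside the mitochondria. Members were the spots of a spotted cDNA array whose annotated name holds a 40S or 60S ribosomal protein, a 60S acidic ribosomal protein, or a ribosomal protein with the letter L or S and a number, leaving out names with mitochond, kinase or plasmodium. This gave 127 of the 21504 spots, of which 76 belonged to the small subunit and 51 to the large subunit. The rule reads names alone and uses no measured value. The array names end after 40 characters, so the gene number was cut off in 13 members (10 small, 3 large), which could be counted by subunit but not by gene. The other 114 spots named 40 genes, 19 of the small and 21 of the large subunit, and 39 of them had a spot measured on all 6 arrays (18 small, 21 large).

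The small subunit binds the messenger and reads its codons, and the large subunit joins the amino acids; a ribosome holds a single copy of nearly every ribosomal protein, apart from the acidic stalk proteins. The messengers of these proteins are among the most abundant of a growing cell and share a pyrimidine tract at their start through which their translation is regulated together. The frog egg carries a large store of ribosomes, and the embryo adds newly made ones during later development, so that the messengers are widely transcribed in tadpole tissues.

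At stages 30, 39 and 46 of development the endoderm was dissected and parted into an anterior piece, whose region gives rise to organs such as the stomach, liver and pancreas, and a posterior piece, whose region forms intestine. No genotype, treatment or strain was given. At each stage anterior cDNA carried the dye Cy5 and posterior cDNA the dye Cy3, and both were hybridised together to 2 arrays, called A and B here, which gave 6 arrays. All values below are log2 ratios of anterior over posterior unless a level is named, and a positive value is a higher anterior signal.

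No array had the dyes exchanged, so that a dye effect on a spot and a regional difference cannot be told apart. Nothing in the labels tells if the arrays of a stage came from different dissections, and the p-values measure only the spread between hybridisations, which may be technical. Each piece is bulk tissue, in which fewer cells of a type and less RNA per cell cannot be told apart. The spots of the endoderm markers, which matched endodermin, GATA-6B and VegT, were all measured at every stage (8 of 8), with median log2 ratios of 0.39, -0.29 and -0.01 at stages 30, 39 and 46 and a range from -1.70 to 0.92 at stage 39. Spots found by the words for muscle were measured too (42 to 48 of 67), with median log2 ratios of 0.03, -0.29 and -0.06 at stages 30, 39 and 46. The word skeletal was among them and also matches cytoskeletal, so that these spots may include genes of other cell types. Epidermis marker spots (14 to 19 of 23) had medians of 0.16, -0.32 and -0.06, and 3 of 4 nervous system spots had -0.46, -0.03 and 0.04. The 4 spots found by the words for red blood cells were named after plakoglobin and a globin transcription factor, so that globin itself was not measured by them (medians -0.09, -0.33 and -0.12). The part of these cells in the ribosomal protein values was not tested.

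The members were bright. On array A of stage 30 their median raw intensity was 28691 in the anterior channel and 21207 in the posterior channel, against 2988.5 and 3037 over all spots. On array B of stage 46, the corresponding medians were 7080 and 6691 for the members and 667 and 874 for all spots. The brightness brought saturation at stage 30, where 61 of the 127 members had over 10% saturated pixels on array A and 27 on array B. At stage 39 each array had 2 such members, and at stage 46 there were none. Of the 127 members, 117 were well above background in either channel on at least 2 arrays, and 10 were not. A ratio could be tested for 115, 111 and 109 members at stages 30, 39 and 46.

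Counted over spots, ribosomal protein genes differed between the regions at each stage in both directions. Their share of higher calls lay near that of the whole array, and with loess and all spots their share of lower calls lay below it at each stage. A spot was called when its Benjamini-Hochberg adjusted p from limma, taken over all probes, was under 0.05. At stage 30, 36 of 115 member spots were higher in anterior endoderm and 22 were lower, where 28.6% and 27.7% of all tested probes were called higher and lower. At stage 39, 29 of 111 were higher and 15 lower, against 31.4% higher and 31.7% lower over all probes. At stage 46, 39 of 109 were higher and 9 lower, against 30.4% and 25.2%. The median log2 ratios over the member spots were 0.06, 0.06 and 0.13 at the 3 stages, beside 0.01, 0.01 and 0.02 over all probes.

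Counted over spots, with up to 10 spots for a gene, the subunits divided these calls differently. Small subunit spots were called higher in 25 of 68 cases and lower in 10 at stage 30, higher in 13 of 65 and lower in 12 at stage 39, and higher in 22 of 63 and lower in 8 at stage 46. Large subunit spots were called higher in 11 of 47 cases and lower in 12 at stage 30, higher in 16 of 46 and lower in 3 at stage 39, and higher in 17 of 46 and lower in 1 at stage 46. Over all probes 28.6% were higher and 27.7% lower at stage 30, 31.4% and 31.7% at stage 39, and 30.4% and 25.2% at stage 46. Counted over genes, each at its brightest spot, 6 of 18 small subunit genes were higher and 0 lower at stage 30. They were 4 and 3 at stage 39, and 3 and 4 at stage 46. Of 21 large subunit genes, 7 were higher and 4 lower, then 5 and 1, then 9 and 1. The difference between the subunits was not tested, because spots of a gene and genes of a subunit are not replicates of a condition. The 13 spots with a cut gene number gave at most 3 calls per subunit and direction at any stage.

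The counts over spots depended on the normalisation and on single arrays. Under median centring of each array, in place of the loess curve that follows intensity, the higher and lower calls were 45 and 17 at stage 30, 83 and 2 at stage 39, and 66 and 5 at stage 46. Over all probes median centring called 28.1% higher and 28.1% lower at stage 30, 35.6% and 31.8% at stage 39, and 29.8% and 27.1% at stage 46. The members' median at stage 39 was then 0.39, and that of the brightest 10% of the other probes was 0.28, where loess gave -0.02 for those bright probes. For fits with an array left out, here and below, calls over all probes were not counted, so that a drop cannot be set against the array. Leaving out an array of stage 30 changed the counts of that stage less than those below. Without array A of stage 39 the calls there were 18 higher and 3 lower, and without array B they were 17 and 9. Without array A of stage 46 they were 23 higher and 5 lower, and without array B 19 and 3. For the small subunit these were 7 and 2, then 7 and 6 at stage 39, and 14 and 4, then 10 and 3 at stage 46. For the large subunit they were 11 and 1, then 10 and 3 at stage 39, and 9 and 1, then 9 and 0 at stage 46. Leaving out spots with over 10% saturated pixels left 51 members at stage 30, of which 11 were higher and 14 lower, or 21.6% and 27.5%, beside 28.4% and 28.2% of all probes. The share of lower calls at stage 30 was then close to that of the array.

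**Figure D1:**
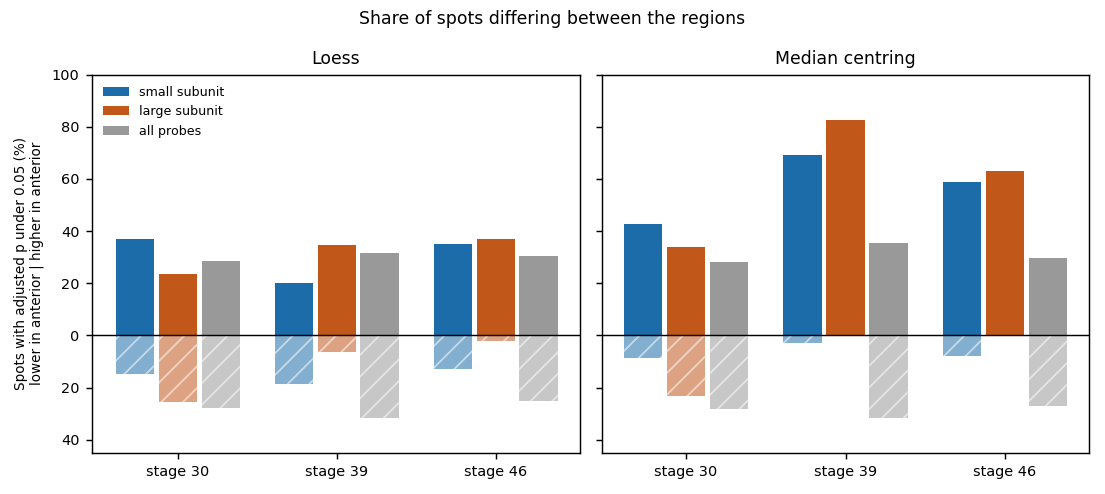
Percent of tested spots with an adjusted p under 0.05, higher in anterior endoderm (solid bars, above 0) or lower (hatched bars, below 0), for small subunit members, large subunit members and all probes at each stage, with loess and with median centring of each array. With loess the small subunit bar on the higher side is 36.8% at stage 30 and 20.0% at stage 39, and at stage 39 median centring raises the higher bars to 69.2% of small and 82.6% of large subunit spots.

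Counted over genes, each taken from its brightest spot with a value on all 6 arrays, 13 of 39 were higher and 4 lower at stage 30, 9 were higher and 4 lower at stage 39, and 12 were higher and 5 lower at stage 46. These were 33.3% and 10.3%, 23.1% and 10.3%, and 30.8% and 12.8% of the genes. Over all probes the shares were 28.6% and 27.7%, 31.4% and 31.7%, and 30.4% and 25.2%. Under median centring the gene counts were 17 and 4, 31 and 0, and 26 and 1. The shares over all probes were then 28.1% and 28.1%, 35.6% and 31.8%, and 29.8% and 27.1%. With loess the largest absolute log2 ratios of a gene were 0.73, 0.74 and 0.69, all under 2-fold, whereas under median centring L6, S4 and L13 were over 2-fold higher at stage 39. A dimmer spot of S13 gave -1.16 at stage 39 with loess and was called lower, while the other spots of that gene gave 0.33 and 0.42 and were called higher. The median absolute log2 ratio over the 39 genes was 0.19, 0.15 and 0.16, beside 0.22, 0.26 and 0.22 over all probes. The signs on arrays A and B were the same in 28 genes at stage 30, 34 at stage 39 and 33 at stage 46. Across the 39 genes the correlation of array A with array B was 0.63, 0.88 and 0.86 at the 3 stages, as a description of genes that share the arrays and that are not independent.

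**Figure D2:**
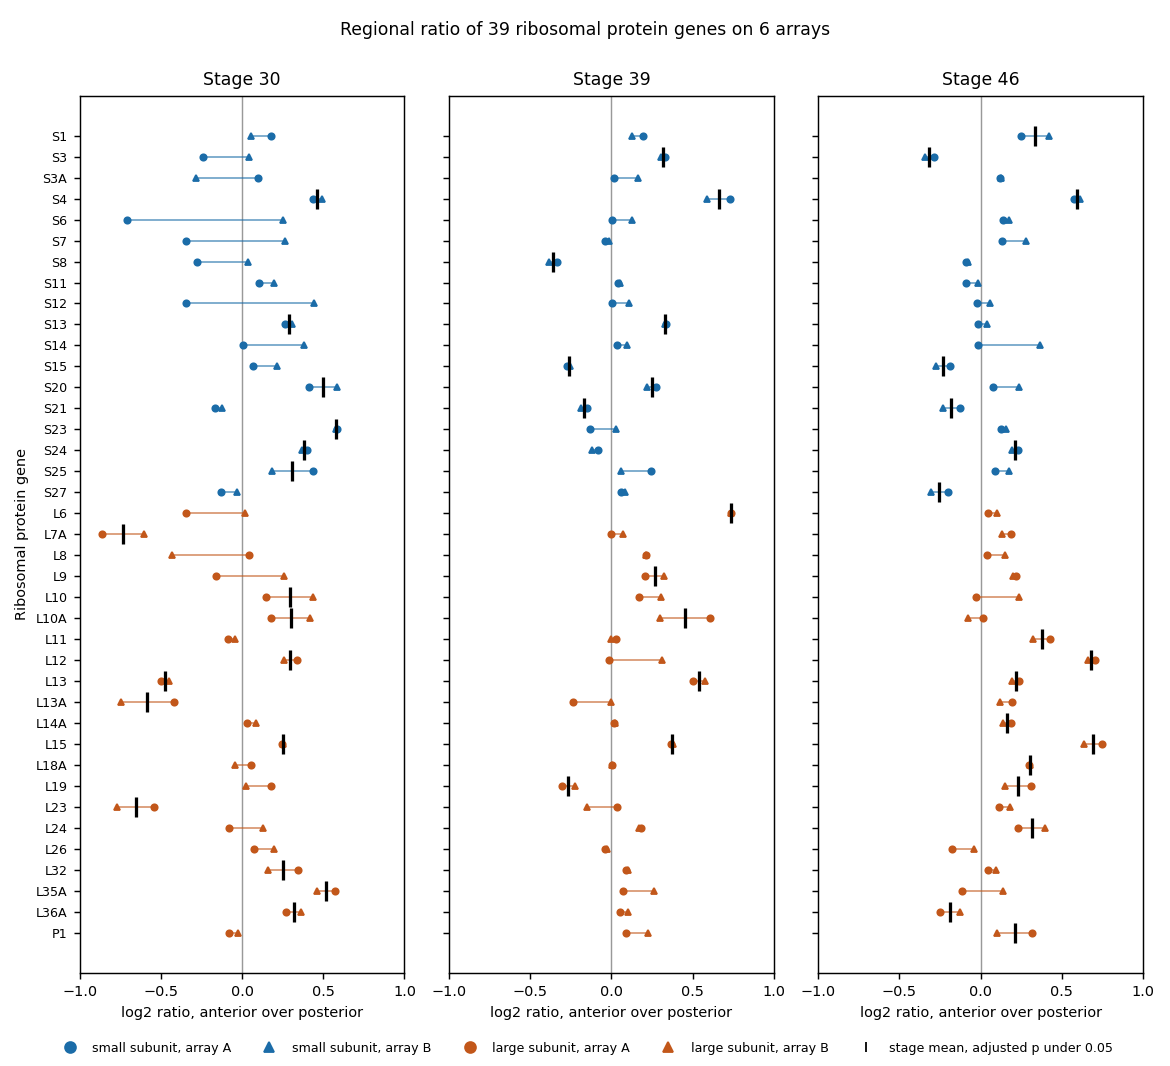
Log2 ratio of anterior over posterior signal for each of 39 ribosomal protein genes on arrays A (circles) and B (triangles) at stages 30, 39 and 46, with small subunit genes in blue and large subunit genes in orange. A black bar marks the stage mean where the adjusted p was under 0.05, as in 17 genes at stage 30, 13 at stage 39 and 17 at stage 46, and S4 and L15 have bars above 0 in all 3 panels.

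At stage 30 the genes higher in anterior endoderm at their brightest spot came from both subunits, whereas the 4 lower ones were all large subunit genes. Counted over spots, 10 of 68 small subunit spots were called lower too, among them 3 of the 4 S1 spots, beside 12 of 47 large subunit spots. The lowest S1 spot, at -0.52, was not well above background in either channel on either array of stage 30. S23, a protein of the decoding centre of the small subunit, gave 0.58 on array A and 0.58 on array B, a mean of 0.58 ± 0.06 (SE) or 1.49-fold (adjusted p 0.000234). L35A, a large subunit protein mutated in some patients with Diamond-Blackfan anaemia, an inherited failure of red cell formation, gave 0.57 and 0.46, with a mean of 0.52 ± 0.08 (adjusted p 0.00126). S20, of the small subunit head, gave 0.41 and 0.59, and its mean was 0.50 ± 0.07 (adjusted p 0.000735). These 3 genes were not past the threshold at stage 46. The same sign on both arrays was required of a gene named at a stage. S4, of the small subunit, gave 0.43 and 0.49 (mean 0.46 ± 0.06, adjusted p 0.000553), and S24, another gene mutated in that anaemia, gave 0.40 and 0.37 (mean 0.38 ± 0.05, adjusted p 0.000752). The other higher genes at stage 30 were S13, S25, L10, L10A, L12, L15, L32 and L36A.

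The lower genes at stage 30 were L7A, L23, L13A and L13. L7A gave -0.86 on array A and -0.60 on array B, with a mean of -0.73 ± 0.07, a ratio of 0.602 (adjusted p 0.000193). The second, dimmer L7A spot had a mean of -0.18 and was not called (adjusted p 0.0732). L23, which lies on the face of the large subunit that meets the small one, gave -0.54 and -0.77, with a mean of -0.66 ± 0.07 and a ratio of 0.634 (adjusted p 0.00035). On array B of stage 30 the L23 spot was not well above background in either channel, at raw intensities of 3398 (anterior) and 6000 (posterior). L13 gave -0.50 and -0.45, with a mean of -0.48 ± 0.05 (adjusted p 0.000358). L7A, L23 and L13 are also named below for their change to stage 39. L13A, known in human cells also for a role in silencing messengers away from the ribosome, gave -0.42 and -0.75, with a mean of -0.58 ± 0.09 (adjusted p 0.00128). The L13A spot was bright, with raw anterior intensities of 12438 and 18810 at stage 30, but did not pass the rule for a signal well above background in the anterior channel, which uses the spread of the local background. On array B 19% of its pixels were saturated in the anterior channel and 1% in the posterior channel, so that the size of its ratio is uncertain. Under median centring L13 at stage 30 was -0.31.

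Saturation touched many of these ratios. At stage 30 the spot used for 26 of the 39 genes had over 10% saturated pixels on an array, among them S23 at 12%, L35A at 38%, S20 at 19%, S4 at 25%, S24 at 36%, L13A at 19% and L13 at 15%. L7A had at most 6% and L23 at most 1%. Among the 13 genes without such saturation, L12 was called higher and L7A and L23 lower at stage 30. The genes with the widest gap between arrays A and B at stage 30 were S6 (-0.71 and 0.25) and S12 (-0.35 and 0.44), and neither passed the threshold; they were picked after their values were seen. S6 is the protein phosphorylated by the kinase named after it.

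At stage 39, 5 large and 4 small subunit genes were higher in anterior endoderm, and 1 large and 3 small subunit genes were lower. L6 gave 0.74 on both arrays, a mean of 0.74 ± 0.08 or 1.67-fold (adjusted p 0.000193), and lay between -0.35 and 0.10 on the arrays of the other stages. S4 gave 0.73 and 0.59, with a mean of 0.66 ± 0.06 or 1.58-fold (adjusted p 6.22e-05). L13 gave 0.51 and 0.58, with a mean of 0.54 ± 0.05 or 1.46-fold (adjusted p 0.000111). Thus L13 lay on the other side of 0 from stage 30 on both arrays. L15, of the large subunit, gave 0.37 and 0.38 (mean 0.37 ± 0.06, adjusted p 0.000744). L10A, which forms a mobile arm of the large subunit where spent transfer RNA leaves, gave 0.61 and 0.30, with a mean of 0.45 ± 0.09 (adjusted p 0.00301). Its call was lost without array A of stage 39 (adjusted p 0.0704). Under median centring the 5 genes were higher still, at 1.11 for S4, 1.02 for L13, 0.91 for L10A and 0.84 for L15, with L6 above them.

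The genes lower in anterior endoderm at stage 39 were S8, L19, S15 and S21. S8 gave -0.34 and -0.38, with a mean of -0.36 ± 0.08 (adjusted p 0.00458). S15, of the small subunit head, gave -0.27 and -0.25 (mean -0.26 ± 0.06, adjusted p 0.00621), and L19, which makes a bridge to the small subunit, gave -0.30 and -0.23 (mean -0.26 ± 0.07, adjusted p 0.00947). S21 gave -0.15 and -0.19, a mean of -0.17 ± 0.06 (adjusted p 0.0292), and its second spot was called lower too. All 4 turned positive, none past the threshold, under median centring, at 0.14, 0.10, 0.08 and 0.02 for S8, L19, S15 and S21. Without array A of stage 39 the calls of L19, S15 and S21 were lost (adjusted p 0.118, 0.0715 and 0.120), and without array B those of S8, S15 and S21 (adjusted p 0.0598, 0.0519 and 0.184). S3, which lies where the messenger enters the small subunit, gave 0.33 and 0.31. At stage 39 its spot was not well above background in the posterior channel on either array, nor in the anterior channel on array A. The measured ratio was 1.25-fold (adjusted p 0.00633), and its size is uncertain.

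At stage 46, 9 large and 3 small subunit genes were higher in anterior endoderm. L15 gave 0.75 and 0.64, with a mean of 0.69 ± 0.06 or 1.62-fold (adjusted p 6.48e-05). L12, at the base of the stalk that receives elongation factors, gave 0.70 and 0.66, with a mean of 0.68 ± 0.08 (adjusted p 0.000381). S4 gave 0.58 and 0.61, a mean of 0.60 ± 0.06 or 1.51-fold (adjusted p 0.000178). L11, which with L5 can also bind the p53 regulator Mdm2 in mammals, gave 0.43 and 0.32, and its mean was 0.38 ± 0.06 (adjusted p 0.00111). The second L11 spot gave 0.02 and was not called. S1 gave 0.25 and 0.42 (mean 0.33 ± 0.07, adjusted p 0.00383). The call of S1 was lost without array B of stage 46 (adjusted p 0.082), and its value under median centring was 0.54. P1, an acidic protein of the stalk and the single stalk protein among the members, gave -0.08 and -0.03 at stage 30, 0.09 and 0.22 at stage 39, and 0.32 and 0.10 at stage 46. It passed the threshold at stage 46 alone (mean 0.21 ± 0.07, adjusted p 0.0345), and not without array A of that stage (adjusted p 0.416) or with the array letter as a block (adjusted p 0.0569). Under median centring P1 passed at stage 39 too (0.57, adjusted p 0.000487) and gave 0.49 at stage 46, and its change from stage 30 to 46, 0.26 with an adjusted p of 0.0537, passed under median centring, without background subtraction and under 4 other alternatives (adjusted p 0.0247 to 0.0488).

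The genes lower in anterior endoderm at stage 46 were S3, S27, S15, L36A and S21, each by less than any of the 5 highest. S3 gave -0.29 and -0.34 (mean -0.32 ± 0.07, adjusted p 0.00812), S27, a zinc-binding protein, gave -0.20 and -0.31 (mean -0.25 ± 0.06, adjusted p 0.00739), and S15 gave -0.19 and -0.28 (mean -0.23 ± 0.06, adjusted p 0.0127). The S3 spot was not well above background in either channel on array A of stage 46. The second S27 spot gave 0.01 and was not called. L36A gave -0.25 and -0.12 (mean -0.19 ± 0.06, adjusted p 0.0292), and S21 gave -0.13 and -0.23 (mean -0.18 ± 0.06, adjusted p 0.0272). At its brightest spot S21 was thus below 0 on all 6 arrays, while its second spot gave 0.06 at stage 30 and was not called. S3, S15, L36A and S21 lost their calls without array A of stage 46 (adjusted p 0.0606, 0.061, 0.304 and 0.0773) and without array B (adjusted p 0.0984, 0.157, 0.0706 and 0.278). S27 lost its call without array B (adjusted p 0.12). Under median centring L36A turned to 0.05, and S15, S27 and S21 stayed negative without passing the threshold.

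At the brightest spot of each gene, S4 in the small subunit and L15 in the large subunit were higher in anterior endoderm at each of the 3 stages, and no gene was lower at each stage. S4 had only 1 spot. At stage 30, 1 of 3 tested L15 spots was called higher, and at stage 39 another L15 spot gave -0.39 and was called lower. L13, L19, L36A and S3 passed the threshold in opposite directions at different stages, S3 from a spot near background. Of the 18 small subunit genes 6 passed at no stage (S3A, S6, S7, S11, S12 and S14), and of the 21 large subunit genes 2 did not (L8 and L26). In a fit on the 3 stage means, which takes differences between stages as error, 0 of the 104 members with values on all arrays passed, where 0% of all 11791 probes did. At an unadjusted p under 0.05 this fit held 7 members and 1165 of all probes. It held 0 members under each alternative run for it.

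The ratio itself changed between stages in genes of both subunits. From stage 30 to 39, 24 of 109 member spots changed towards anterior and 22 towards posterior, beside 29.6% and 30.5% of all probes. From stage 39 to 46, 18 of 106 changed towards anterior and 15 towards posterior, beside 28.1% and 22.1%. From stage 30 to 46, 28 of 107 changed towards anterior and 17 towards posterior, beside 28.7% and 24.7%. In the comparison of stage 30 with 39, small subunit spots moved towards anterior in 6 of 63 and towards posterior in 16, and large subunit spots in 18 of 46 and 6. Under median centring the small subunit counts turned to 24 and 5, with 31 and 0 for the large subunit. Without saturated spots they were 6 and 6 of 31, with 8 and 2 of 17 for the large subunit, beside 30.3% and 30.2% of all probes. Between stages 30 and 46 the counts were 10 and 14 of 61 for the small subunit and 18 and 3 of 46 for the large subunit. Under median centring these were 13 and 8, and 22 and 2. Without saturated spots they were 9 and 5 of 30, and 10 and 0 of 17, beside 29.4% and 24.5% of all probes. The balance of the small subunit calls thus differed between the settings. These contrasts share the arrays of the stage they have in common.

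With median centring the counts over both subunits were 55 and 5 from stage 30 to 39, beside 33.2% and 29.0% of all probes. They were 7 and 30 from stage 39 to 46, beside 26.6% and 27.8%, and 35 and 10 from stage 30 to 46, beside 28.2% and 25.7%. With loess and without array A of stage 39 they were 15 and 10 from stage 30 to 39 and 10 and 9 from stage 39 to 46, and without array B of stage 39 they were 16 and 16, and 12 and 9. Without array A of stage 46, 7 and 9 spots changed from stage 39 to 46 and 20 and 10 from stage 30 to 46, and without array B 12 and 8, and 21 and 11.

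The change from stage 30 to 39 was led by L13, which changed by 1.02 ± 0.08 (adjusted p 4.5e-05), from -0.50 and -0.45 to 0.51 and 0.58. L6 changed by 0.90 ± 0.12 (adjusted p 0.000464), L7A by 0.77 ± 0.10 (adjusted p 0.000469) and L23 by 0.60 ± 0.11 (adjusted p 0.0019), all large subunit genes. At stage 30 the L6 spot had up to 90% saturated pixels, and the L23 spot was not well above background in either channel on array B. L7A rose from -0.86 and -0.60 to 0.00 and 0.07. In the other direction S23 changed by -0.63 ± 0.08 (adjusted p 0.000499), from 0.58 and 0.58 to -0.13 and 0.03. S24 changed by -0.49 ± 0.07 (adjusted p 0.00101), S15 by -0.40 ± 0.09 (adjusted p 0.00458) and L19 by -0.36 ± 0.09 (adjusted p 0.0115). The second S24 spot was called higher at stages 30 and 39, with 0.35 at stage 39, where the spot used gave -0.10. Under median centring S23 passed with -0.36. S24, S15 and L19 did not pass, at -0.17, -0.14 and -0.10, and L19 not without array A of stage 39 (adjusted p 0.0731).

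From stage 39 to 46 the ratio of L12 changed by 0.53 ± 0.11 (adjusted p 0.00611), that of L19 by 0.50 ± 0.09 (adjusted p 0.0037), that of L11 by 0.36 ± 0.08 (adjusted p 0.00718) and that of L15 by 0.32 ± 0.08 (adjusted p 0.011). L6 changed by -0.66 ± 0.12 (adjusted p 0.00282), from 0.74 on both arrays to 0.05 and 0.10. S3 changed by -0.63 ± 0.10 (adjusted p 0.00188). Its spot was not well above background in posterior endoderm at stage 39, nor in either channel on array A of stages 39 and 46. L10A changed by -0.49 ± 0.13 (adjusted p 0.0147) and L13 by -0.33 ± 0.08 (adjusted p 0.0101). L19 lay at -0.30 and -0.23 at stage 39 and at 0.31 and 0.15 at stage 46. L11 and L15 did not pass under median centring, at 0.18 and 0.13, and L12 and S3 passed with 0.34 and -0.39. The calls were lost for L10A without array A of stage 39 (adjusted p 0.101) and without array A or B of stage 46 (adjusted p 0.05002 and 0.0852), and for L11 without array A of stage 46 (adjusted p 0.0593). They were also lost for L13 without array B of stage 39 or 46 (adjusted p 0.0624 and 0.0661) and for L15 without array A of stage 39 or 46 (adjusted p 0.0585 and 0.0829).

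**Figure D3:**
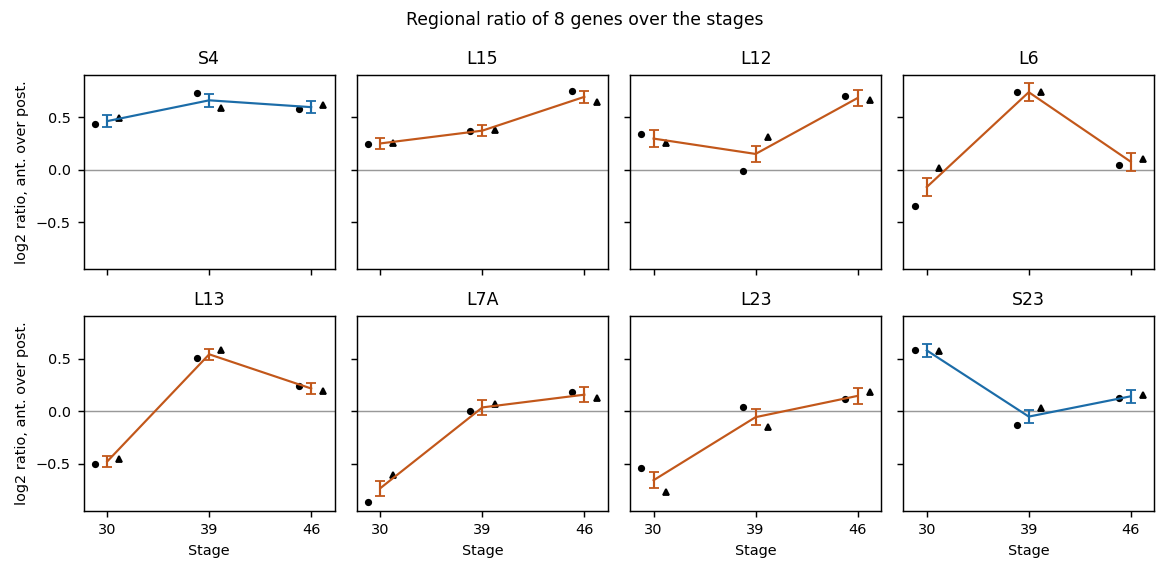
Log2 ratio of anterior over posterior signal for 8 of the genes named in the text at stages 30, 39 and 46: the line joins stage means with bars of 1 SE, and circles and triangles are arrays A and B. Each gene is shown at its brightest spot. S4 and L15 stay above 0, L6 is high at stage 39, L13, L7A and L23 are negative at stage 30, and S23 is high at stage 30.

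Many genes were spotted more than once, from different cDNA clones. Genes with at least 4 spots are described, and L13 and S23, with 3 spots each, were added after their values were seen. The second spots of L7A, L11, S21, S24 and S27, given with those genes, were picked in the same way. Spots of a gene are repeated readings of a family of like messengers on the same arrays and not replicates. For L13 the 3 spots gave -0.56, -0.48 and -0.42 at stage 30, all called lower, and 0.50, 0.51 and 0.54 at stage 39, all called higher, and 2 of the 3 were called higher at stage 46. For L6 all 5 spots were called higher at stage 39, between 0.30 and 0.74, and none was called at stage 46. At stage 30, 2 of the 5 were called lower, and all 5 lay between -0.67 and -0.12. For S23 all 3 spots were called higher at stage 30, between 0.38 and 0.58, and at stage 39 they lay between -0.22 and 0.24, with 1 called in each direction. For S1 all 4 spots were called higher at stage 46, between 0.32 and 0.56, while at stage 30, 3 of the 4 were called lower, and the brightest gave 0.12. The S1 spot lowest at stage 30 was not well above background in either channel at that stage, nor on array A of stage 46.

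Other genes were split over their spots. The 10 spots of S12, the gene with most spots, lay between -0.02 and 0.62 at stage 30, with 6 called higher and none lower. At stage 39, 4 of the 9 tested S12 spots were called higher and 1 lower, and at stage 46, 4 of 10 were higher and 1 lower, whereas the brightest S12 spot passed at no stage. Of the 7 tested L10 spots, 3 were called higher and 2 lower at stage 30, between -0.53 and 0.39, and at stages 39 and 46 calls were higher only, in 1 and 2 spots. S7 had 2 spots higher and 2 lower of 7 at stage 30, between -0.93 and 0.35, then 3 lower at stage 39, and 1 in each direction of 5 at stage 46. S25 had 2 higher and 2 lower of 6 at stage 30, and 1 higher and none lower at each of stages 39 and 46. S20 had 3 higher and 1 lower of 4 at stage 30, and 1 higher at each later stage. S8 had 1 of 5 higher at stage 30, 1 lower at stage 39 and 3 higher at stage 46, so that the lower call of its brightest spot at stage 39 was not shared by its other spots, whose mean was 0.01 with that spot counted. L15 had 3 tested spots of 5, of which 1, 2 and 2 were higher at the 3 stages and 1 was lower at stage 39, and L18A had 2 higher and 1 lower of 4 at stage 30, 1 higher at stage 39 and 3 higher at stage 46.

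**Figure D4:**
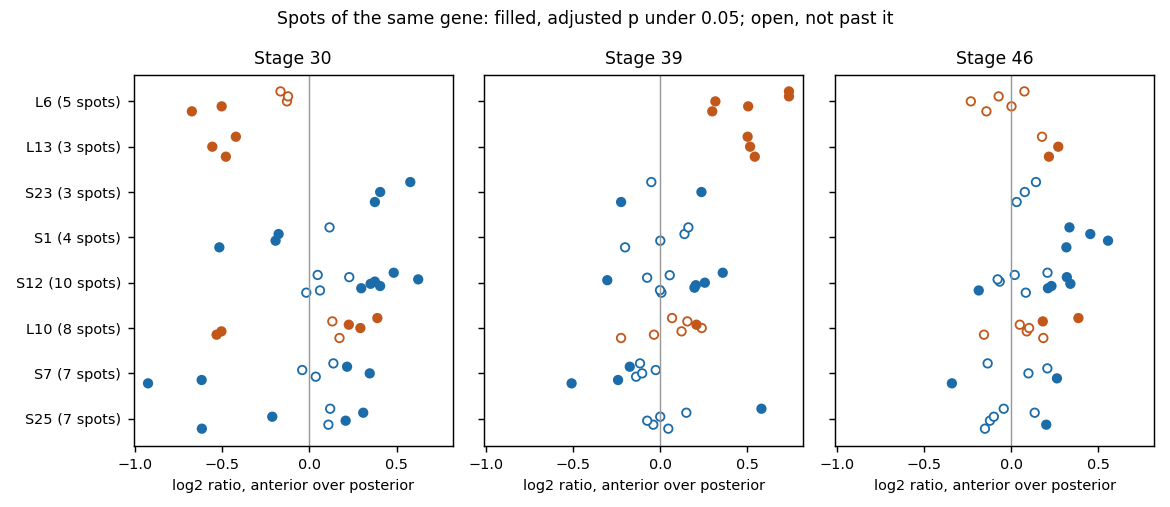
Log2 ratio of anterior over posterior signal of each tested spot of 8 genes at stages 30, 39 and 46, filled where the adjusted p was under 0.05 and open where not, with small subunit genes in blue and large subunit genes in orange. The 5 spots of L6 and the 3 of L13 lie together above 0 at stage 39, and the spots of S7 spread from -0.93 to 0.35 at stage 30.

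Among the genes with at least 2 tested spots, 7 of 25 had spots called in both directions at stage 30 (L10, L18A, L32, S7, S15, S20 and S25), 4 of 23 at stage 39 (L15, S12, S13 and S23) and 3 of 23 at stage 46 (S7, S12 and S15). Xenopus laevis carries many genes in an L and an S copy, named after its subgenomes. In the RefSeq annotation of assembly Xenopus_laevis_v10.1 a symbol was found for 38 of the 40 names, with both copies in 25, the L copy alone in 8 and the S copy alone in 5. A spot of cDNA can bind the messengers of both copies, so that a value may be a mixture of them. Some names carry an older number in brackets, such as L23 (L17), L24 (L30), L35A (L32), S20 (S22) and S24 (S19), and the first number was used. No symbol was found for S1 and L14A, whose names may also follow an older numbering, so that either may be the same gene as another counted here.

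The medians of the subunits lay close to each other. Over the 18 small subunit genes the median log2 ratio was 0.08 and 0.23 on arrays A and B of stage 30, 0.03 and 0.09 at stage 39, and 0.03 and 0.14 at stage 46. Over the 21 large subunit genes it was 0.04 and 0.08, then 0.07 and 0.17, then 0.19 and 0.15. The small minus large difference was 0.09 ± 0.08 (SD, n = 2 arrays) at stage 30, -0.07 ± 0.03 at stage 39 and -0.08 ± 0.10 at stage 46. Its sign was the same on both arrays at each stage, positive at stage 30 and negative at the later stages, and at stages 30 and 46 the difference was about as large as the spread between arrays. With the saturated spots left out it was -0.09 at stage 30, over 4 small and 9 large subunit genes. Large subunit genes had positive ratios in 12 and 13 of 21 cases on the arrays of stage 30, 17 and 17 at stage 39, and 17 and 18 at stage 46, and small subunit genes in 11 and 15, 12 and 13, and 9 and 12 of 18.

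Within a region, few members passed the threshold for a change of level between neighbouring stages. These comparisons used the channels of all arrays after their intensities had been brought to the same distribution, so that a change is relative to the array as a whole. In anterior endoderm from stage 30 to 39, 2 of 104 member spots were called higher and 0 lower, beside 4.77% and 6.23% of all probes, and from stage 39 to 46, 0 were higher and 1 lower, beside 3.02% and 2.61%. In posterior endoderm 1 spot was higher and 0 lower from stage 30 to 39, beside 3.54% and 3.71%, and 0 either way from stage 39 to 46, beside 2.76% and 2.96%. At an unadjusted p under 0.05 the posterior comparison of stages 39 and 46 held 10 of 104 members, beside 2311 of all 11791 probes. At its brightest spot 0 of 39 genes passed limma's test between neighbouring stages in either region. At an unadjusted p under 0.05 there were 6 and 3 of the 39 genes in anterior and 5 and 4 in posterior endoderm. Of all 11791 probes there were 3361 and 2695 in anterior and 2696 and 2311 in posterior endoderm. Without array A of stage 30 the higher calls from stage 30 to 39 were 15 in anterior and 10 in posterior endoderm, and without any single array of stages 39 and 46 they were 0.

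From stage 30 to 46, 8 of 104 member spots were called higher and 0 lower in anterior endoderm, all 8 of the large subunit, beside 7.68% and 6.66% of all probes. In posterior endoderm 2 were called higher and 0 lower, both of the small subunit, beside 6.14% and 6.66%. The genes called at their brightest spot, chosen here after their values were seen, were L23, L13, L24, L7A and L18A in anterior and S27 in posterior endoderm. The anterior level of L23 was 11.26 and 11.19 on the arrays of stage 30 and 12.62 and 12.59 at stage 46, on the log2 intensity scale, a change of 1.38 ± 0.32 (adjusted p 0.0163). That of L13 was 13.82 and 14.49 at stage 30 and 15.46 and 15.14 at stage 46 (change 1.15 ± 0.28, adjusted p 0.0208), and that of L7A was 12.46 and 12.45, then 13.38 and 13.56 (change 1.01 ± 0.30, adjusted p 0.0416). The second L7A spot changed by 0.37 and did not pass (adjusted p 0.478). The L23 spot was not well above background in either channel on array B of stage 30. L24, which also makes a bridge between the subunits, changed by 1.12 ± 0.29 (adjusted p 0.0278), and L18A by 0.92 ± 0.26 (adjusted p 0.0356). The posterior level of S27 was 12.89 and 13.05 at stage 30 and 14.09 and 13.81 at stage 46, a change of 0.98 ± 0.25 (adjusted p 0.0257). At the spots used for these 6 genes the arrays of stage 46 lay above those of stage 30. This is no separate result, because the genes were chosen by their calls.

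The median change from stage 30 to 46 was 0.28 over small and 0.61 over large subunit genes in anterior endoderm, and 0.31 and 0.45 in posterior endoderm, beside 0.02 and 0.01 over all probes. Of 39 genes, 33 had a positive change in each region. The share of positive changes over all probes, or over other probes as bright as the members, was not counted. The small subunit median was 0.14 on the A and 0.49 on the B arrays in anterior endoderm and 0.27 and 0.76 in posterior endoderm, and without array A of stage 30 it was 0.55 and 0.68 in the 2 regions. Fewer spots were tested without the saturated ones, which left 4 small and 9 large subunit genes at stage 30. The small subunit median was then 0.090 in anterior and 0.29 in posterior endoderm, and the large subunit median was 0.73 and 0.34. For the counts that follow, calls over all probes are not given, so that a drop or rise cannot be set against the array. The subset and the arrays mattered: the anterior count of higher spots was 2 without saturated spots, 19 and 10 without array A or B of stage 30, 3 and 5 without array A or B of stage 39, and 0 without either array of stage 46. The posterior count was 13 and 6 without array A or B of stage 30, and 0 without any single array of stages 39 and 46.

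**Figure D5:**
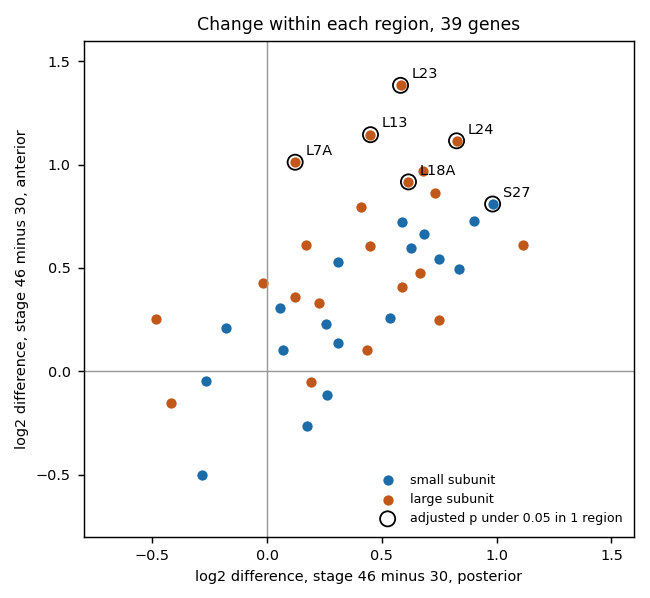
Change of the log2 level from stage 30 to 46 in posterior endoderm (x axis) and anterior endoderm (y axis) for 18 small and 21 large subunit genes, with a ring around genes past an adjusted p of 0.05 in a region. L23, L13, L24, L7A and L18A are ringed for anterior and S27 for posterior endoderm, and 33 of 39 genes lie above 0 on each axis.

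Other genes of protein synthesis were counted in the same way, with lists chosen by name. Of all probes, 28.6% were called higher and 27.7% lower at stage 30, 31.4% and 31.7% at stage 39, and 30.4% and 25.2% at stage 46. The lists overlap: elongation factors, some poly(A)-binding proteins and nucleophosmin are also counted among the messengers with a pyrimidine tract. Of the spots of translation factors, which include the elongation and initiation factors and the poly(A)-binding proteins, 4 of 25 were higher and 13 lower in anterior endoderm at stage 30, 9 of 24 higher and 7 lower at stage 39, and 7 of 26 higher and none lower at stage 46. Their medians were -0.16, 0.11 and 0.09. Spots of nucleolar and ribosome assembly proteins, such as nucleolin, fibrillarin and nucleophosmin, were higher in 16, 14 and 17 of 32 and lower in 5, 8 and 4, with medians of 0.18, 0.12 and 0.22. The other messengers with a pyrimidine tract at their start had 9 of 25 higher and 8 lower, 10 of 27 and 9, and 6 of 27 and 2, with medians of -0.04, 0.11 and 0.09. The list of dividing cell genes had 22 of 52 higher and 9 lower, 24 of 50 and 10, and 13 of 50 and 13, with medians of 0.15, 0.16 and -0.01. Mitochondrial ribosomal proteins had only 2 spots.

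The authors' deposited table held a ratio for 91 members at stage 30 and 120 at each of stages 39 and 46. Over all probes it correlated with the log2 ratios used here at 0.995, 0.868 and 0.978 for stages 30, 39 and 46, as a description across probes of the same arrays. By the authors' deposited table the median log2 ratio over all its probes was -0.04, -0.32 and -0.11, so that its zero differs from that used here.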

How the data were processed

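The 6 scanner files, 2 per stage, held median spot and local background intensity, deposited without normalisation from a GenePix scanner whose gain was set per slide, per the labels. They also held the percent of saturated pixels and a flag score, per the file headers. The authors' deposited table of ratios, normalised with GeneData Refiner per the labels, was an alternative; other alternatives changed background, normalisation, filter, saturation, gene value, array block and arrays. In limma 3.58.1 (R 4.3.3), background was corrected with normexp (offset 50), ratios were fitted with loess (span 0.3), and 231 control spots and spots not found were left out. Probes above background plus 2 SD in either channel on 2 arrays or more were tested (15646). A mean per stage was fitted with 3 residual degrees of freedom. Levels within a region came from the separate-channel fit after Aquantile (intraspot correlation 0.950). The p-values were two-sided and adjusted over all probes (Benjamini-Hochberg). The fits were tested on simulated data. Named genes were the 5 largest in each direction per stage with the same sign on both arrays, the 4 largest per contrast of stages, and stalk proteins; genes with at least 4 spots were described by their spots, to which L13 and S23 were added. Members and lists were chosen with earlier results of these data known.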

Additional observations from a re-analysis of the deposited data

Results flagged for a closer look

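The ratio of anterior over posterior endoderm differed between stages, by limma's test of the difference itself over all probes, for these genes at their brightest spot. From stage 30 to 39 the log2 ratio changed by 1.02 in L13, 0.90 in L6, 0.77 in L7A and 0.60 in L23, and by -0.63 in S23, -0.49 in S24, -0.40 in S15 and -0.36 in L19. From stage 39 to 46 it changed by 0.53 in L12, 0.50 in L19, 0.36 in L11 and 0.32 in L15, and by -0.66 in L6, -0.63 in S3, -0.49 in L10A and -0.33 in L13. Under median centring the changes of S24, S15 and L19 from stage 30 to 39 did not pass, nor those of L11 and L15 from stage 39 to 46. Some of these calls also depended on a single array, as given above for L19, L10A, L11, L13 and L15. The S3 spot was not well above background in posterior endoderm at stage 39, nor in either channel on array A of stages 39 and 46. The L23 spot was not well above background in either channel on array B of stage 30.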

How the results depend on the processing

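The 39 genes rest on 2 hybridisations a stage and 1 dye orientation, saturation limits the ratios of stage 30, and spots of a gene can bind several copies. Of 425 pairs of a count or median and an alternative, 108 moved by more than 1.5 times (counts) or by more than the spread between arrays (medians), 1 of them reversed. Of 782 pairs for 50 named results, 7 reversed, 36 lost their call and 8, all of P1, gained one, and 27 of the 36 lost it with an array left out. With the array letter as a replicate block, 0 of 15 counts and medians moved, and P1 at stage 46 lost its call (0.21, adjusted p 0.0569). The letters did not pair the arrays (correlations of A minus B between stages of -0.10, 0.04 and -0.04). Median centring gave, as member spots higher and lower, 83 and 2 at stage 39, 66 and 5 at stage 46, 55 and 5 for stage 30 to 39, and 7 and 30 for stage 39 to 46. It gave 10 lower for stage 30 to 46. Within regions it gave 7 higher (stage 30 to 39) and 13 (stage 30 to 46) in anterior and 0 and 1 in posterior endoderm. It turned L19, S15, S21 and S8 at stage 39 to 0.098, 0.083, 0.020 and 0.14, and L36A at stage 46 to 0.049. The mean over spots turned S8 to 0.010, and the authors' deposited table turned L36A to 0.0058. Spots well above background in both channels on all arrays gave 9, 9 and 3 lower at the 3 stages, 11 higher for stage 30 to 39 and 17 for stage 30 to 46. This filter left 12 small and 14 large subunit genes, and its share over all probes is not given here. Without saturated spots, 11 were higher and 14 lower at stage 30, 14 and 8 of 48 for stage 30 to 39, and 5 of 47 lower for stage 30 to 46. Of all probes, 30.3% and 30.2% were called in that setting for stage 30 to 39, and 24.5% lower for stage 30 to 46. Within regions 1 (stage 30 to 39) and 2 (stage 30 to 46) were then higher in anterior and 0 and 0 in posterior endoderm. Quantile normalisation gave 0 (stage 30 to 39) and 1 (stage 30 to 46) higher in posterior endoderm, and no background subtraction gave 0 lower (anterior) and 1 higher (posterior) for stage 39 to 46. The small minus large median at stage 30 was -0.093 without saturated spots and 0.21 in the authors' deposited table. At stage 39 it was -0.12 with median centring, -0.023 with the mean over spots and -0.12 in the authors' deposited table. The large subunit change from stage 30 to 46 was 0.73 (without saturated spots) and 0.47 (mean over spots) in anterior, and 0.37 (median centring), 0.34 (without saturated spots) and 0.41 (mean over spots) in posterior endoderm. The cause of the shifts was not tested. Calls over all probes were not counted for the fits with an array left out, and those within regions are not given for the other alternatives. With each array left out in turn, higher calls ranged from 17 to 38 at stage 39, 19 to 47 at stage 46, 15 to 30 for stage 30 to 39 and 7 to 25 for stage 39 to 46. Lower calls ranged from 3 to 18, 3 to 11, 10 to 23 and 8 to 17 in the same order, and from 10 to 20 for stage 30 to 46. In anterior endoderm higher calls ranged from 0 to 15 (stage 30 to 39), 0 to 1 (stage 39 to 46) and 0 to 19 (stage 30 to 46), and lower calls from 0 to 3, 0 to 3 and 0 to 1. In posterior endoderm they ranged from 0 to 10, 0 to 2 and 0 to 13, and from 0 to 3, 0 to 1 and 0 to 2. The small minus large median ranged from -0.086 to -0.047 at stage 39 and from -0.16 to -0.0090 at stage 46. The changes from stage 30 to 46 ranged from 0.28 to 0.55 (small) and 0.50 to 0.68 (large) in anterior and from 0.22 to 0.68 and 0.35 to 0.51 in posterior endoderm. The mean over spots of a gene gives no counts of spots.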
